A study of Mus musculus with 12 samples.

Results

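Open chromatin in aortic endothelial cells of mice was compared between offspring of mothers fed a Western diet and offspring of mothers fed a control diet, where both kinds of offspring were themselves on the control diet. The groups are named WDM-CDO and CDM-CDO. The labels abbreviate the diets as WD and CD, taken here as Western and control diet. M stands for the mother and O for her offspring, and a sample's title was taken to give the mother's diet first. The mothers' diet is then the only labelled difference between the groups. No age, sex or strain of the mice is used here. A peak is a stretch of DNA where ATAC-seq, which marks open chromatin by inserting a transposase, piled up more reads than the surrounding background. The peaks described are those of one group's list that share no base with any peak of the other group's list, on chromosomes 1 to 19 and X. There were 16909 of them among the 50497 peaks of both lists and the 95734 peaks of the 4 ATAC-seq lists of the series. Of the WDM-CDO list 11553 of 28319 peaks (40.8%) had no counterpart in CDM-CDO, and of the CDM-CDO list 5356 of 22178 peaks (24.2%) had none in WDM-CDO. With the longer list cut to the length of the shorter by strength, these numbers were 5976 and 5908. The other 16766 WDM-CDO peaks and 16822 CDM-CDO peaks overlapped each other and serve as the background. One peak list stands for the 2 samples of a group, so no spread between mice can be given and no difference was tested. Intervals in brackets are 95% Wilson intervals and cover counting error only.

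Endothelial cells line the aorta. They keep leukocytes out through junctions, set vessel tone through nitric oxide and endothelin, and after injury or lipid loading they switch on adhesion molecules and chemokines through the transcription factors NF-kB and AP-1. Accessible regions lie at promoters, which are shared by many cell types, and at distal enhancers, which carry most of what is particular to a cell type or to an activated state.

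The other ATAC-seq lists of the series, from offspring of the same kinds of mothers that were given the Western diet again for 4 weeks (WDM-WDO and CDM-WDO), were not used to choose the peaks and show whether a peak was called in other mice. The peak names carry the tag 08w in both CDO lists and 12w in both WDO lists. The labels do not say what the tag counts, and it cannot be told apart from the offspring's diet. The lists also differ in length, with 26275 peaks in WDM-WDO and 18962 in CDM-WDO. The genome background, the lowest background level in a list, was 5.59 reads in WDM-CDO against 4.84 in CDM-CDO. It was 6.08 in WDM-WDO against 5.49 in CDM-WDO. In shared regions that were strong in WDM-CDO, the summit pileup above that background was a median 1.46 times higher in WDM-CDO than in CDM-CDO. The label of the cells was set against marker genes. A region is a peak, or peaks of both lists merged where they overlap, assigned to the nearest protein-coding gene within 100 kb. Of 25 endothelial identity genes, 22 had a region in WDM-CDO against 18 in CDM-CDO. Sox18, Robo4 and Etv2 had none in either list. All 16 T cell markers had a region in both lists, with 58 regions in WDM-CDO against 53 in CDM-CDO. B cell markers had one for 10 of 14 genes in each list, and macrophage and monocyte markers for 11 of 16 in each, though not for all the same genes. Smooth muscle markers had one for 5 of 14 genes in each list, with none at Myh11, Cnn1 or Myocd. Of these, Tagln and Synpo2 had a region in WDM-CDO only, and Acta2 and Des in CDM-CDO only. Lists that mark no cell type were as full: all 24 AP-1 and early response genes and 19 of 20 housekeeping genes had a region in each list. The lists thus hold regions at lymphocyte, macrophage and endothelial marker genes, but these counts alone do not show which cells were present. Fewer cells of a type cannot be told apart from less open chromatin per cell.

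The promoters below carry the comparison at start sites. The 250 bases before the start site are shown for 8 genes whose promoter window was open in one of the CDO lists only, and for Nfkbia, the gene of the NF-kB inhibitor IkB-alpha, whose window was open in all 4 lists. Capitals mark CpG, the dinucleotide that is frequent in broadly active promoters. Sequences are from RefSeq, build GRCm38.p6, and read 5′ to 3′ along the gene.
Il1r1, chr1:40224830-40225079, plus strand, open in WDM-CDO only of the CDO lists: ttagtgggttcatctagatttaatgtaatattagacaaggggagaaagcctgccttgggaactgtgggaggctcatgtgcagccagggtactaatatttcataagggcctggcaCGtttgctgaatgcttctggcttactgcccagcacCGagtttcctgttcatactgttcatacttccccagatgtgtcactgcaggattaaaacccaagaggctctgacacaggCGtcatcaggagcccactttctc
Ikbke, chr1:131279564-131279813, minus strand, open in WDM-CDO only of the CDO lists: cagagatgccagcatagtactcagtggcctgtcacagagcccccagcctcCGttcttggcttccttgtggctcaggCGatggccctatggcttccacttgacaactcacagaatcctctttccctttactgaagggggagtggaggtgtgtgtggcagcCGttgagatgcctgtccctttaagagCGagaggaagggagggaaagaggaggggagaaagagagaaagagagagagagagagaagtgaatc
Plxnd1, chr6:115995006-115995255, minus strand, open in WDM-CDO only of the CDO lists: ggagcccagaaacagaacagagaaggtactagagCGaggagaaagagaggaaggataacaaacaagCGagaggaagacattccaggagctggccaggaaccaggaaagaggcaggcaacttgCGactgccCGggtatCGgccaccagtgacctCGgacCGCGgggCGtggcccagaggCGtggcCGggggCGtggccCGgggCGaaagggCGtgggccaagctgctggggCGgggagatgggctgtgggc
Edn1, chr13:42301226-42301475, plus strand, open in WDM-CDO only of the CDO lists: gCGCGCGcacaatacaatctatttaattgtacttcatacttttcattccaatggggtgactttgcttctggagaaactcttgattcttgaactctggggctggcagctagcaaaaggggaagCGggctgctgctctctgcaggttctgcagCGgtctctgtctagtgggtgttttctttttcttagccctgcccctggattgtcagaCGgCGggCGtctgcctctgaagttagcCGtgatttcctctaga
Cldn5, chr16:18776597-18776846, plus strand, open in WDM-CDO only of the CDO lists: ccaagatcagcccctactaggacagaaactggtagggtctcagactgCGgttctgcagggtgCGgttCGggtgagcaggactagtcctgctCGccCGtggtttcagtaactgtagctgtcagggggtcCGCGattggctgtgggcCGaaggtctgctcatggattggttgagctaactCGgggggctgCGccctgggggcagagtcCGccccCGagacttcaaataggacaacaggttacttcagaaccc
Cd36, chr5:17835897-17836146, minus strand, open in WDM-CDO only of the CDO lists: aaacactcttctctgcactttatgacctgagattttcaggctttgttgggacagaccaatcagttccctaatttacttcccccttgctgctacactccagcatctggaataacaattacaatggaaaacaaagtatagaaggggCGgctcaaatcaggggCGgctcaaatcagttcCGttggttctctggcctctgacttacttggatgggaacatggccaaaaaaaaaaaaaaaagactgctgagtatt
Dot1l, chr10:80754953-80755202, plus strand, open in WDM-CDO only of the CDO lists: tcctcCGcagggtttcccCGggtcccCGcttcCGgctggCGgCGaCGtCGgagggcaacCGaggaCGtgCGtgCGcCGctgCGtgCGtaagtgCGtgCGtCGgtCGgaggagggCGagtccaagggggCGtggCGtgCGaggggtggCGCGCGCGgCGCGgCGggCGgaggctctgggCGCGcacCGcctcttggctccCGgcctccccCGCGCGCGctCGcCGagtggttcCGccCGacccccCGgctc
Acta2, chr19:34255374-34255623, minus strand, open in CDM-CDO only: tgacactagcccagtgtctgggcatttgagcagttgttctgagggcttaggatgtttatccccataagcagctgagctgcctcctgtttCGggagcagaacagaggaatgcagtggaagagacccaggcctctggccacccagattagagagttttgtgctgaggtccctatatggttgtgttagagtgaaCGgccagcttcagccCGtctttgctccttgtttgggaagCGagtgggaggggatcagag
Nfkbia, chr12:55492648-55492897, minus strand, open in both: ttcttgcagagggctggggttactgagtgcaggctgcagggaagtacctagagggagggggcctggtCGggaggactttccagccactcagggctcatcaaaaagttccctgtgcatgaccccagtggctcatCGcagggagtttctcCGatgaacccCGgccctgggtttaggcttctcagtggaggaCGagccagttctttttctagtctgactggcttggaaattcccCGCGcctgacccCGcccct
Il1r1 and Ikbke had 3 and 4 CpG in these bases, and these windows were open in WDM-CDO and WDM-WDO only, although both genes had a CDM-CDO peak within 1 kb of a listed start. Dot1l had 44 CpG and Plxnd1 16, so promoters of both kinds were among those open in one list. Acta2, the smooth muscle actin gene, was the only one of them open in CDM-CDO alone. The Ikbke peak had 32 reads. At the median pileup ratio 22.97 were expected in CDM-CDO, where a call needed 23, so no call was expected there.

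Peaks without a counterpart were weak. Strength is given as the authors' −log10 q, the peak caller's own score adjusted over the genome, and as the summit pileup, the number of reads stacked at the highest base. The median −log10 q was 3.34 for peaks in WDM-CDO only and 2.94 for peaks in CDM-CDO only, against 20.2 and 13.1 for the shared peaks of the same lists. Median pileups were 22 and 19 reads against 61 and 45, and median widths 408 and 381 bp against 779 and 719 bp. In WDM-CDO the share without a counterpart dropped from 95.6% of peaks with a −log10 q between 1 and 2 to 31.9% between 8 and 10 and 2.28% between 20 and 30. In CDM-CDO the same shares were 86.9%, 5.69% and 0.0971%. At the pileup ratio of the shared regions, 47.8% of the WDM-CDO-only peaks were expected past the call of the CDM-CDO list. The rest were expected below that call. Of the shared WDM-CDO peaks 95.1% were expected past it. All 5356 CDM-CDO-only peaks were expected past the call of WDM-CDO, and so were all 16822 shared CDM-CDO peaks. The ratio raises a pileup moved to WDM-CDO more than its background, so this value cannot set the one-sided peaks apart. At 2 or more times the pileup a call needed in CDM-CDO were 29 WDM-CDO-only peaks (0.251%), against 43.5% of shared ones. In the other direction 308 CDM-CDO-only peaks (5.75%) were, against 73.0% of shared ones.

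**Figure D1:**
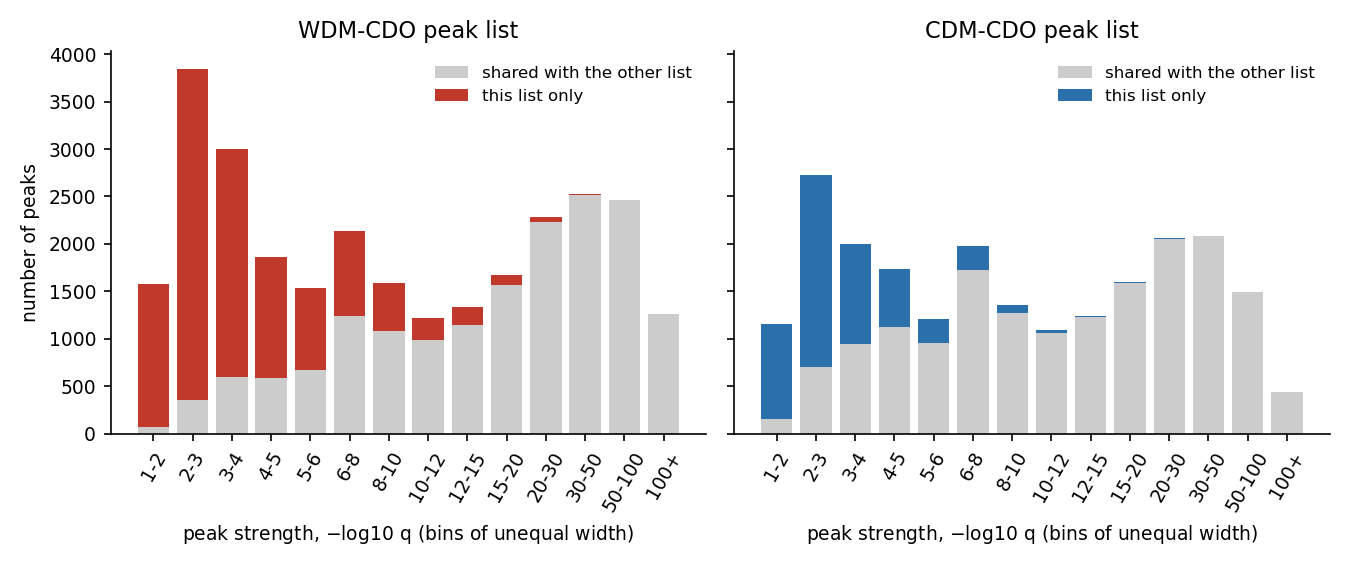
Number of peaks by strength (−log10 q, bins of unequal width) in the WDM-CDO list (left) and the CDM-CDO list (right), split into peaks shared with the other list (grey) and peaks of that list only (red or blue). The one-sided peaks gather in the weak bins, and 67 of the 11553 in WDM-CDO only and 4 of the 5356 in CDM-CDO only reach a −log10 q of 20.

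One-sided peaks lay mostly away from start sites. Within 1 kb of a listed start site were 8.28% (7.79 to 8.8) of the peaks in WDM-CDO only and 7.08% (6.42 to 7.79) of those in CDM-CDO only, against 46.8% of the shared peaks. Over 100 kb from any protein-coding gene were 15.6% and 22.5%, against 2.9% of the shared peaks of either list. By chromosome, the share without a counterpart was highest on X (52.2% in WDM-CDO, 38.0% in CDM-CDO) and lowest on chromosome 11 (33.8% and 15%), where the median −log10 q of all peaks was 11.1 and 10.3 against 4.68 and 5.38 on X.

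Genes whose start site was open in one list only were few. Of 17274 protein-coding genes with a listed start site, 816 (4.72%) had a peak within 1 kb of it in WDM-CDO only and 294 (1.7%) in CDM-CDO only, while 8423 had one in both. The promoter windows themselves, from 250 bases before to 50 after the start, held a median of 16 CpG where they were open in WDM-CDO only and 17 where open in CDM-CDO only, against 23 where open in both and 4 where open in neither. Of open windows with at most 9 CpG, 22.5% were open in WDM-CDO only and 7.54% in CDM-CDO only. With 20 to 29 CpG these shares were 5.77% and 1.81%. Short motifs were counted on both strands of the windows. The AP-1 site TGANTCA was in 6.41% of windows open in WDM-CDO only and 6.04% of those in CDM-CDO only, against 4.09% of those open in both and 7.04% of all windows. The GC box GGGCGG was in 58.3% and 57.7% against 70.5% and 46.7% of all, the ETS core GGAAGT in 24.3% and 20.5% against 30.3% and 25%, and the NRF1 site in 5.97% and 7.05% against 12.5% and 6.44%. Both kinds of one-sided window held fewer CpG, and fewer of them a GC box or NRF1 site, than windows open in both lists. A match is a description of the letters and not a bound site.

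Endothelial identity genes had more regions in WDM-CDO only than genes at large. Of their 70 regions, 36 (51.4%, 39.95 to 62.75) were in WDM-CDO only and 9 (12.9%, 6.91 to 22.7) in CDM-CDO only, against 9751 (32.4%) and 4152 (13.8%) of the 30133 regions of all genes. By gene, 14 of 25 had more regions in WDM-CDO only and 3 had more in CDM-CDO only. Of all 21631 genes these were 5218 and 1771. Of 24 vessel tone genes they were 14 and 1, of 25 fatty acid genes 14 and 0, and of 20 housekeeping genes 2 and 0. Cdh5 codes for VE-cadherin, which holds adherens junctions together. It had 6 WDM-CDO-only regions, 1 CDM-CDO-only region and none in both. Its strongest, inside the gene at chr8:104121667-104122270, had a pileup of 44 and a −log10 q of 12.2. Pecam1, the gene of the junction protein CD31, had 5 in WDM-CDO only, the strongest with a pileup of 76, and 1 in both lists. Erg, an ETS factor that maintains endothelial identity, had 6 in WDM-CDO only and 1 in both, and Tek, which codes for the angiopoietin receptor TIE2, had 3, the strongest at a −log10 q of 16.7. The other way, Emcn had 2 regions in CDM-CDO only with a pileup of at most 17. At the start site, Cldn5, the gene of the tight junction protein claudin-5, had a WDM-CDO peak of 43 reads where 30.5 were expected in CDM-CDO and 25 were needed for a call. With both lists at equal length, 42.4% of the endothelial regions were in WDM-CDO only and 18.6% in CDM-CDO only, against 20.7% and 18.1% of all regions. Where endothelial regions were called in both lists, the scaled pileup did not lean to either: 13 of 25 were above and 12 below the median ratio of the strong shared regions. Among markers of other cells some lists lay above the share of all genes in WDM-CDO only and others below it. Of 15 regions of fibroblast markers 10 were in WDM-CDO only and 1 in CDM-CDO only, of 13 of adipocyte markers 9 and 1, and of 13 of lymphatic endothelium markers 10 and 2. Of 6 regions of neutrophil markers these were 5 and 1, and of 11 of smooth muscle markers 5 and 3. Macrophage and monocyte markers had 2 of 17 regions in WDM-CDO only (11.8%), pericyte markers 3 of 14 (21.4%) and T cell markers 14 of 67 (20.9%). The part of cell makeup in these counts was not tested.

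**Figure D2:**
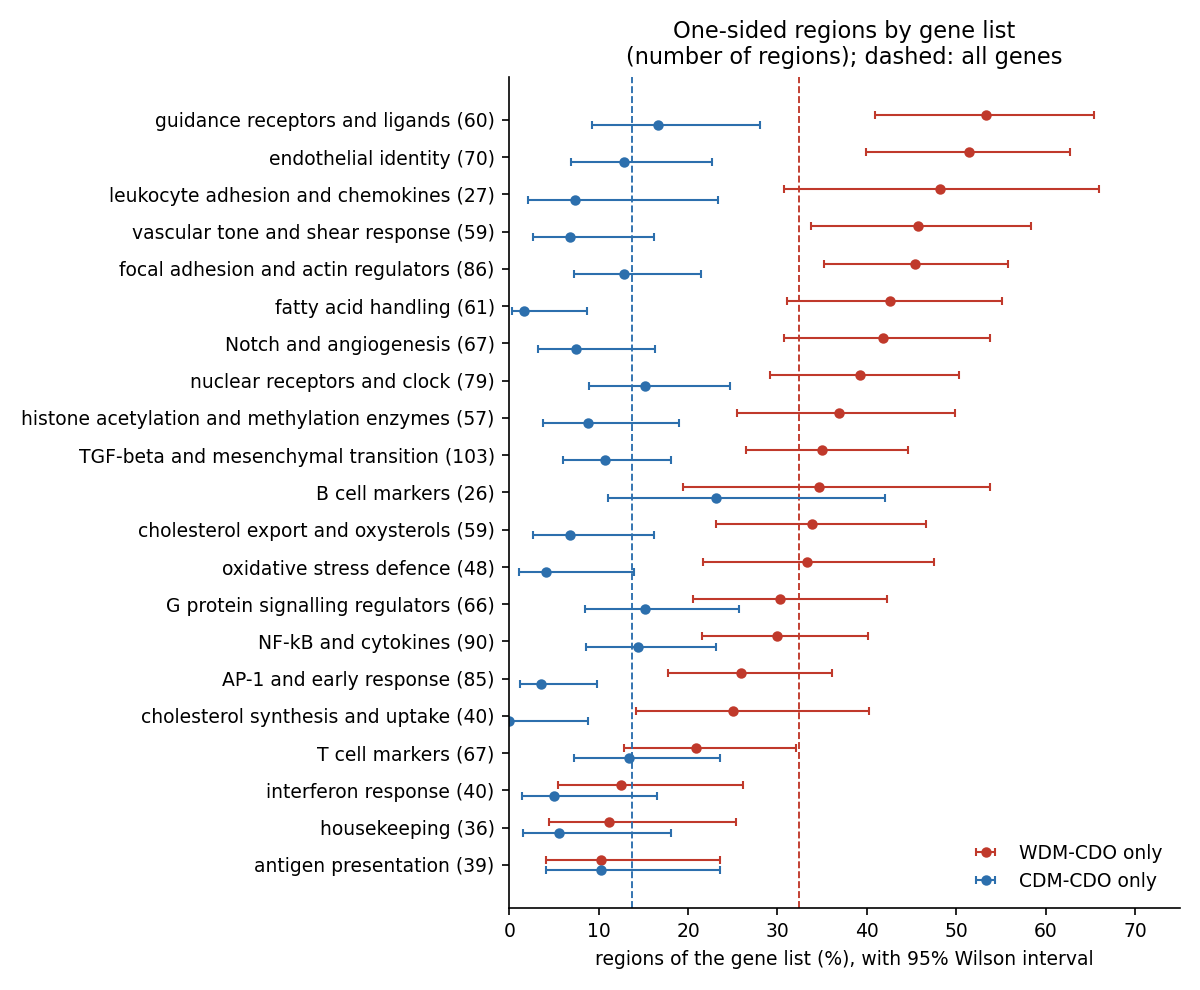
Share of the regions of each gene list (vertical axis, number of regions in brackets, lists with at least 20 regions) that were in WDM-CDO only (red) or CDM-CDO only (blue), with 95% Wilson intervals. Dashed lines give the shares of all genes, 32.4% and 13.8%. Endothelial identity and guidance genes lie to the right for WDM-CDO only, and housekeeping and antigen presentation genes to the left.

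The endothelial regions of WDM-CDO were more often found again in CDM-WDO than in WDM-WDO. Of the 36, 7 (19.4%) overlapped a WDM-WDO peak and 15 (41.7%) a CDM-WDO peak, whereas for all genes the order was the reverse, 26.3% and 14.9%. The region 4801 bp from Cdh5, those inside Sox17 and Eng and the one at the start of Cldn5 were called in CDM-WDO and missing from WDM-WDO. The strongest of Pecam1 was called in neither. Between the WDO lists themselves, 17 endothelial regions were in WDM-WDO only and 27 in CDM-WDO only, the opposite order to the 36 and 9 of the CDO lists, and that difference was not tested.

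Genes of vessel tone had 27 of 59 regions in WDM-CDO only (45.8%, 33.7 to 58.3) and 4 in CDM-CDO only, against 32.4% and 13.8% for all genes. Notch and angiogenesis genes had 28 and 5 of 67, and the interval of the first share (41.8%, 30.7 to 53.7) included that of all genes. Edn1, the gene of the vasoconstrictor endothelin-1, had 4 regions in WDM-CDO only, all of them called in WDM-WDO and 2 of them in CDM-WDO. The one at its start site had a pileup of 50, with 35.3 expected in CDM-CDO and 21 needed, and it was called in both WDO lists, so that CDM-CDO was the only list without it. Nos3, the endothelial nitric oxide synthase gene, had 2 regions in WDM-CDO only, with at most 39 reads. Nrp2, a co-receptor for VEGF and semaphorins, had 6 in WDM-CDO only, of which 4 were called in WDM-WDO and 3 in CDM-WDO. Esm1, a marker of sprouting tip cells, was open at its start in WDM-CDO alone with 33 reads. Ednrb, an endothelin receptor gene, was open near its start in CDM-CDO and not in WDM-CDO, with 24 reads. That peak was called in both WDO lists, so that WDM-CDO was the only list without it. Of 60 regions of guidance receptors and ligands, 32 (53.3%, 40.9 to 65.4) were in WDM-CDO only and 10 (16.7%) in CDM-CDO only. Plxnd1, which codes for the semaphorin receptor plexin-D1, carried the strongest start-site peak of that list, with a pileup of 96 where 66.9 were expected and 43 needed, and it was also called in WDM-WDO but not CDM-WDO. Plxnb1 and Slit2 were open at their starts in CDM-CDO only, with 31 and 19 reads.

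Inflammatory genes differed less in number, but a larger share of their WDM-CDO-only regions was called again in WDM-WDO. Of 90 regions of NF-kB and cytokine genes, 27 (30%) were in WDM-CDO only and 13 in CDM-CDO only, near the shares of all genes. Of those 27, 19 (70.4%, 51.5 to 84.1) overlapped a WDM-WDO peak and 7 (25.9%) a CDM-WDO peak, and 12 were called in WDM-WDO alone of these. They were also stronger than WDM-CDO-only regions at large, with a median −log10 q of 5.17 against 3.41. Of all WDM-CDO-only peaks with a −log10 q between 5 and 8, near a gene or not, 41.0% (38.8 to 43.4) were in WDM-WDO. Not all 27 regions lay in that range, so the match in strength is loose. Tnfaip3, which codes for the A20 brake on NF-kB, had 3 WDM-CDO-only regions, all 3 of them in WDM-WDO and 1 in CDM-WDO. Those of Il1r1, the interleukin-1 receptor gene, Il1b, the gene of interleukin-1 beta, and Tnip1, whose product binds A20, numbered 2 each and were all in WDM-WDO. Il1b also had 1 in CDM-WDO, and Il1r1 and Tnip1 had none there. Il1r1 had 29 reads at one of its listed starts, 20.9 expected and 17 needed. Nlrp3, the inflammasome sensor gene, had 3 WDM-CDO-only regions, 2 of them in both WDO lists. Its start-site peak had 51 reads. Nfkb1, which codes for the p50 subunit, leaned the other way with 2 regions in WDM-CDO only and 4 in CDM-CDO only.

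AP-1 and early response genes held most regions in common, 60 of 85, with 22 (25.9%) in WDM-CDO only and 3 (3.53%) in CDM-CDO only, both below the 32.4% and 13.8% of all genes. Within 10 kb of the genes the first share was 17.0%. Of the 22, 16 (72.7%, 51.8 to 86.8) were in WDM-WDO and 9 (40.9%) in CDM-WDO. Their median −log10 q was 5.03, against 3.41 for WDM-CDO-only regions of all genes. Of all WDM-CDO-only peaks with a −log10 q between 5 and 8, near a gene or not, 41.0% were in WDM-WDO and 22.8% in CDM-WDO. All 20 genes with a listed start site were open there in both lists. Ier5 had 5 in WDM-CDO only, of which 4 were in WDM-WDO and 2 in CDM-WDO. Dusp5 and Dusp1, genes of phosphatases that switch off MAP kinases, had 4 and 3. Btg2 had 1 with a pileup of 109, the highest of the list, 9189 bp from the gene and called in all lists but CDM-CDO. In regions called in both lists the median scaled log2 ratio of WDM-CDO over CDM-CDO was 0.16, with 43 regions above 0 and 16 below, against −0.06 for all genes. By the ratio of fold enrichments this list's median was 0.11, like the 0.11 of all genes, so that lean depends on the scale.

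Among leukocyte adhesion and chemokine genes, 13 of 27 regions were in WDM-CDO only and 2 in CDM-CDO only. The share in WDM-CDO only (48.1%, 30.7 to 66.0) had an interval that included the 32.4% of all genes. Of the 13, 8 (61.5%) were in WDM-WDO and 4 (30.8%) in CDM-WDO, against 26.3% and 14.9% for all genes. Those 13 regions had a median −log10 q of 4.98, against 3.41 for WDM-CDO-only regions of all genes. Ccl2, the monocyte chemoattractant gene, had 2, the stronger 28166 bp away with 51 reads and called in both WDO lists. Cxcl1 had 2, and Cxcl16, whose product is a chemokine and a scavenger receptor, had 1 with 48 reads. Vcam1, Sele, Madcam1 and Glycam1 had no region in either list, and Icam1 had 1, in both.

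**Figure D3:**
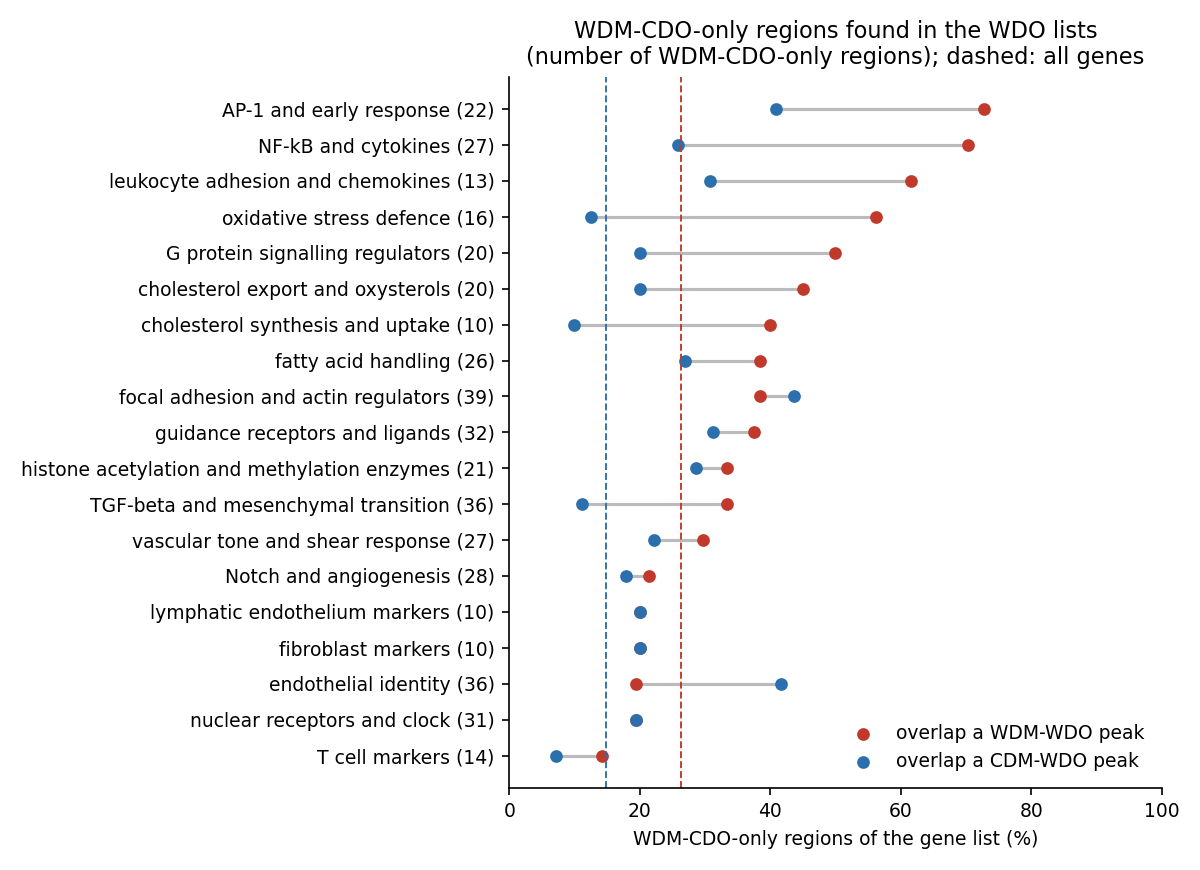
Share of the WDM-CDO-only regions of each gene list (number in brackets, lists with at least 10) that overlapped a WDM-WDO peak (red) or a CDM-WDO peak (blue). Dashed lines give all genes, 26.3% and 14.9%, and are not matched for peak strength. AP-1, NF-kB and leukocyte adhesion genes lie above 60% in WDM-WDO, while for endothelial identity and focal adhesion genes the blue point is the higher one. A single visible point means equal shares.

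Fatty acid genes had 1 region in CDM-CDO only. Of 61 regions of fatty acid genes, 26 (42.6%, 31.0 to 55.1) were in WDM-CDO only and 1 (1.64%, 0.290 to 8.72) in CDM-CDO only, against 32.4% and 13.8% for all genes. Fabp5, the gene of a fatty acid binding protein, had 3, the strongest with 43 reads and a −log10 q of 15.6. Cd36, the gene of a fatty acid and oxidised lipid receptor, was open at a listed start with 22 reads, 16.1 expected and 14 needed, and was called there in both WDO lists. Cpt1a, which codes for the carnitine transferase that admits fatty acids to mitochondria, had 1 with 73 reads, and Ppard and Acsl3 had 3 each. At equal list lengths 31.4% (20.3 to 45.0) of the regions were in WDM-CDO only, against 20.7% for all genes. Both intervals of the share in WDM-CDO only included that of all genes. Of 40 regions of cholesterol synthesis and uptake genes, 10 (25%) were in WDM-CDO only, below the share of all genes, and none in CDM-CDO only. Cholesterol export and oxysterol genes had 20 of 59 (33.9%) in WDM-CDO only and 4 in CDM-CDO only. Abca1, the cholesterol exporter gene, had 6 in WDM-CDO only, none in CDM-CDO only and 5 in both. Of the 6, 3 were in WDM-WDO and 2 in CDM-WDO. Of 86 regions of focal adhesion and actin genes, 39 (45.3%) were in WDM-CDO only and 11 in CDM-CDO only. Of the 39, 15 (38.5%) were called in WDM-WDO and 17 (43.6%) in CDM-WDO. Itga5, which codes for the fibronectin receptor chain alpha-5, had 4, all in WDM-WDO and 3 of them in CDM-WDO. Hmox1, the heme oxygenase gene of oxidative stress defence, had 1 peak 9540 bp away with 58 reads and a −log10 q of 21.7, called in WDM-WDO but not CDM-WDO. Housekeeping genes had 4 of 36 regions in WDM-CDO only and 2 in CDM-CDO only, fewer than genes at large in both directions.

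In regions called in both lists, the medians of antigen presentation and B cell genes lay below that of all genes by either scale, as did those of some other lists. The antigen presentation median was below 0 by pileup and above 0 by fold enrichment. Antigen presentation genes had 31 of 39 regions in both lists, and 4 in each list only. In the 31 the median scaled log2 ratio was −0.25, against −0.06 for all genes, with 10 above 0 and 21 below. In 11 regions of B cell markers it was −0.58, with 1 above and 10 below. By the ratio of fold enrichments the medians were 0.07 for antigen presentation and −0.00312 for B cell markers, both below the 0.11 of all genes. Medians below all genes on both scales were also those of vessel tone genes (−0.08 by pileup, −0.02 by fold enrichment), cholesterol export genes (−0.09, 0.01) and guidance genes (−0.09, 0.07). Focal adhesion genes lay above on both (0.10, 0.22). H2-Ab1, the gene of an MHC class II beta chain, had both kinds of peak about the same gene. The CDM-CDO-only peak at chr17:34268634-34269371 had 169 reads and a −log10 q of 63.3 and was called in no other list. The WDM-CDO-only peak at chr17:34263190-34263635 had 105 reads and was called in both WDO lists. H2-Eb1 had 2 peaks in CDM-CDO only, of 66 and 51 reads, called in no other list. The immunoglobulin kappa locus had 9 regions in CDM-CDO only, 7 in WDM-CDO only and 1 in both. One of the 9, at chr6:70074034-70074324, was the strongest CDM-CDO-only peak, with 110 reads and a −log10 q of 73.8. The heavy chain locus had 10 and 12, with 6 in both, and the T cell receptor alpha locus 8 and 13, with 9 in both. Of T cell markers, 14 of 67 regions were in WDM-CDO only and 9 in CDM-CDO only, and Tcf7 was open near its start in CDM-CDO only.

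The strongest peaks of one list only were at promoters and inside genes of many functions. In WDM-CDO the highest −log10 q, 61.0, was 85 bases before a start of Gm527 on chromosome 12, with 104 reads where 72.4 were expected in CDM-CDO and 21 needed. Parvb, whose product beta-parvin links integrins to actin, followed with 104 reads inside the gene and was called in both WDO lists. Dot1l, the histone H3 lysine 79 methyltransferase gene, had 126 reads 93 bases before its start, with 87.5 expected and 46 needed, and was called in no other list. Rgs16, a regulator of G protein signalling, had one 16517 bp away with 74 reads, Heg1, a gene needed for heart and vessel integrity, one with 76, and Bcl11b, a T cell factor gene, one with 93. Peaks that followed the mothers' diet in both offspring diets included, in WDM-CDO, those at the start of Rab3ip (70 reads) and 27048 bp from Hlf (68 reads). In the CDM-CDO list they included those inside Stap1 (32 reads) and at the start of Pkib (26 reads), both called in CDM-WDO and not in WDM-WDO. In CDM-CDO the strongest after H2-Ab1 included those inside Zmynd11 (60 reads) and Arhgdib (52 reads), at the start of Usp12 (63 reads) and at an end of Notch2 (41 reads). Of these, Zmynd11 and Arhgdib were called in WDM-WDO, and none in CDM-WDO.

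Some large genes collected many one-sided regions. Lpp, which codes for an actin-associated LIM protein, had 13 in WDM-CDO only, none in CDM-CDO only and 3 in both, over a span of 599 kb. Maml3, a Notch co-activator gene, had 10, 1 and 10, and Foxp1 10, 5 and 15. Elmo1, which works with Dock1 in cell migration, had 8, 1 and 5, and Creb5 9, 2 and 2. In CDM-CDO the counts were lower, with 7 for Frmpd4, 6 each for Sox5, Sipa1l1 and Med13l, and 5 for Peli1. Frmpd4 and Sox5 had 4 and 6 in WDM-CDO only as well.

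The 16715 regions called in both lists allow pileups to be compared once their median ratio is set aside. Whether that ratio reflects depth or a difference common to all peaks was not tested, and the scaling removes either. The ratio of pileups above genome background was divided by its median over 13103 strong regions, 1.46. Strong here means a −log10 q in WDM-CDO of at least 8.21, the median of that list, whatever the strength in CDM-CDO. On that scale 17 regions (0.102%) were at least 2-fold higher in WDM-CDO and 156 (0.933%) in CDM-CDO. The 156 were weak, with median pileups of 23 in WDM-CDO against 32 in CDM-CDO, and by fold enrichments only 2 and 3 regions passed. The choice of scale shifts the median of all genes from −0.06 to 0.11 on the log2 scale. The regions with the largest ratios, among those with at least 60 reads in one list, lay at genes of many functions. At the start of Cxcl2, a neutrophil chemokine gene, 108 reads stood against 35 (scaled log2 ratio 1.22), and at Cxcl1 73 against 28 (0.999). Near Ier3, an NF-kB target gene, there were 2 such regions, with 111 against 39 and 100 against 36 reads. Tnfaip2 had 93 against 37, Slc15a3, a peptide transporter gene of innate immune cells, 89 against 32, a region 62547 bp from Cebpb, a factor of myeloid genes, 68 against 26, and one 41179 bp from Runx1 65 against 26. The largest ratio, 1.47, was at the start of Eif4ebp2, a translation repressor gene, with 115 against 32 reads.

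These regions could be followed into other mice. Of the 20 highest in WDM-CDO, 19 were called in WDM-WDO and 16 in CDM-WDO, against 94.95% and 85.9% of the 8717 regions of that strength. In the 15 called in both WDO lists, the ratio of WDM-WDO over CDM-WDO, scaled in the same way, was above 0 in 11 (73.3%), with a median of 0.25, against 45.2% and −0.04 for regions of that strength. Cxcl2 had 171 reads in WDM-WDO against 82 in CDM-WDO (0.48), Slc15a3 193 against 93 (0.46), Tnfaip2 143 against 73 (0.39) and Cebpb 126 against 69 (0.29). In the other 4 it was below 0, at −0.66 for Atp5g3, −0.36 for Bcar1, −0.06 for Timp2 and −0.0066 for Gm46963. Without replicate lists these ratios have no error.

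The 20 regions highest in CDM-CDO were rarely found again. Of them, 6 were called in WDM-WDO and 5 in CDM-WDO. In the 5 called in both WDO lists, the scaled ratio of WDM-WDO over CDM-WDO was above 0 in 1 (20%). Its median was −0.17, against 45.2% and −0.04 for regions of that strength. Regions 11 to 20 of either ranking, among them Cebpb, Cxcl1, Runx1, Tnfaip2, Olfr164, Tubb5 and Ahnak, were added after their values were seen. Cd79b, a B cell receptor gene, had 167 reads in CDM-CDO against 120 in WDM-CDO (−1.05), Tubb5 164 against 131 and Ahnak 96 against 78, and none of these was called in either WDO list. A region 86960 bp from Olfr164, with 125 against 95 reads, lies inside the immunoglobulin lambda locus.

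**Figure D4:**
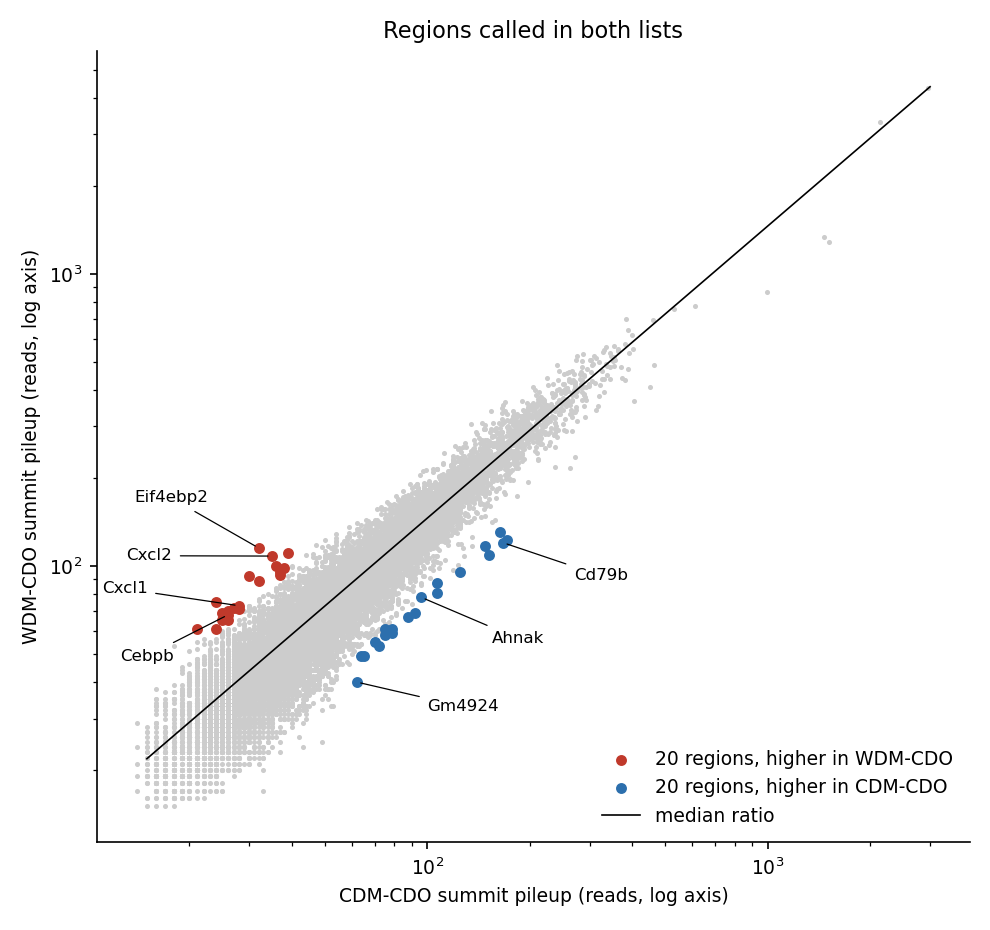
Summit pileup in CDM-CDO (horizontal) and WDM-CDO (vertical), both in reads on log axes, of the 16715 regions called in both lists (grey). The line is the median ratio of 1.46, and the 20 regions farthest from it on each side among those with at least 60 reads in one list are in red and blue. Cxcl2, at 108 against 35 reads, lies above the cloud and Cd79b, at 120 against 167, below it.

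Near a gene or not, the one-sided peaks were found again in other mice more often the stronger they were, up to a −log10 q of 12. They were found more often in the list of Western diet mothers whichever list they came from, and WDM-WDO was also the longer list. Of the WDM-CDO-only peaks, 23.7% (22.9 to 24.5) overlapped a WDM-WDO peak and 14.1% (13.5 to 14.7) a CDM-WDO peak. Of the CDM-CDO-only peaks, 12.9% (12.03 to 13.83) overlapped a WDM-WDO peak and 7.65% (6.97 to 8.40) a CDM-WDO peak. Shared WDM-CDO peaks did so in 80.1% and 64.8%. In the strongest WDM-CDO-only peaks, with a −log10 q of 20 or more, 65.7% (53.7 to 75.9) and 38.8% (28.0 to 50.8) were called, against 95.8% and 87.4% of shared peaks of that strength. CDM-CDO-only peaks between 8 and 12 were called in 34.9% and 14.7%. Counting only peaks that one WDO list held and the other did not, 1736 WDM-CDO-only peaks were in WDM-WDO against 628 in CDM-WDO. For CDM-CDO-only peaks these numbers were 526 and 245. At start sites, 336 of the 816 genes open in WDM-CDO only (41.2%, 37.8 to 44.6) were open in WDM-WDO and 169 (20.7%) in CDM-WDO. Of the 294 genes open in CDM-CDO only, 84 (28.6%) and 37 (12.6%) were.

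**Figure D5:**
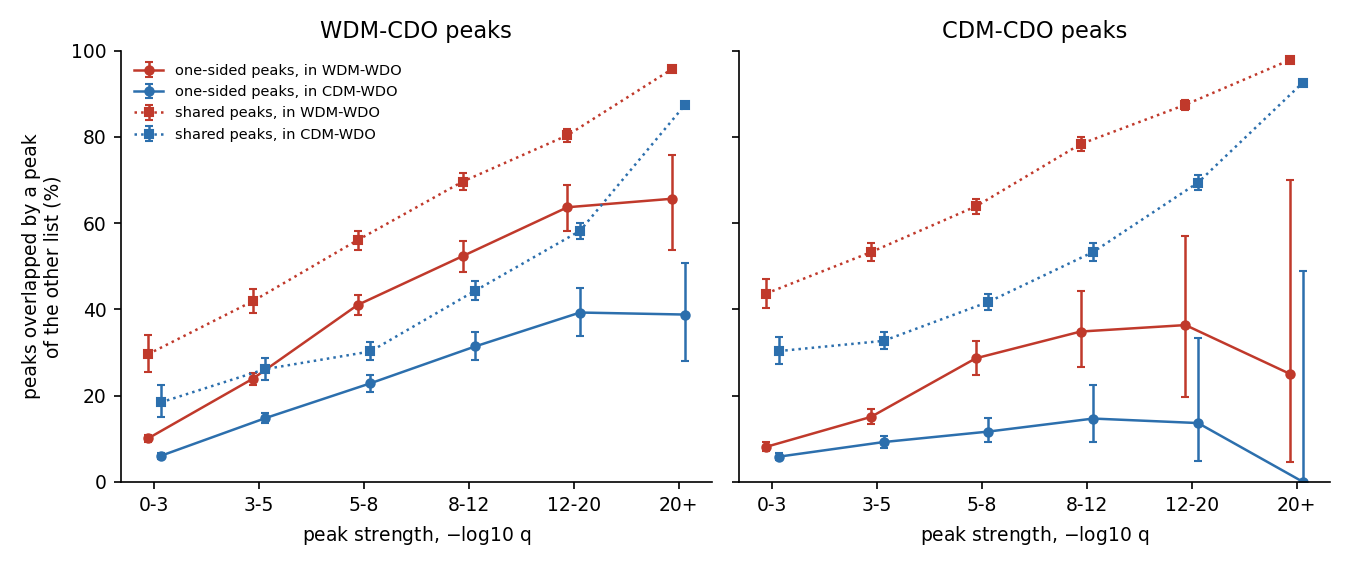
Share of WDM-CDO peaks (left) and CDM-CDO peaks (right) that overlapped a WDM-WDO peak (red) or a CDM-WDO peak (blue), by strength, for one-sided peaks (solid lines, circles) and shared peaks (dotted lines, squares), with 95% Wilson intervals. One-sided peaks lie below shared peaks of the same strength in every bin, and red lies above blue for both lists.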

How the data were processed

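ATAC-seq of mouse aortic endothelial cells gave 8 samples in 4 groups of 2, with 1 peak list per group; the 4 H3K27ac CUT&Tag samples were not analysed here. Per the submitters' processing notes, the authors used MACS2 2.2.9.1, Bowtie2 2.4.5 and SAMtools 1.13, besides deepTools 3.5.4, Trim Galore 0.6.10 and FastQC 0.12.1, on the build GRCm38 (mm10). Settings, a shift of reads for the transposase and how a group's samples were combined are not given in these sources. A peak's fold enrichment is the authors' ratio of its summit to the local background. Its −log10 p and its −log10 q, from the p-value and q-value of the caller, were taken as deposited.

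Peaks that shared at least 1 bp counted as shared. Summit pileups were recovered from fold enrichment and −log10 p as whole reads (relative tolerance 0.0001, 100% of peaks). An expected pileup is the excess over genome background moved to the other list by the median pileup ratio; the pileup needed is what a call took there. Peaks of both lists were merged into regions and assigned to the nearest span of 21631 protein-coding genes (RefSeq GRCm38.p6) within 100 kb. Start sites were listed for 17274 genes and none was listed on chromosome 18. Of 564 listed genes in 29 lists, 563 were matched. Shares carry 95% Wilson intervals. No test was run, since no group has replicate lists, and the depth of a single sample is unknown. Scripts ran in Python 3.11.15 with numpy 2.4.6, pandas 2.3.3, scipy 1.17.1 and matplotlib 3.10.9, and were tested on simulated data.

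The members and lists were chosen with earlier results of these data known. Named genes were those with the strongest one-sided peaks at and away from gene ends, the most one-sided regions, the largest pileup ratios or peaks that followed the mothers' diet in both offspring diets, and in each list the members open at an end in one list only or with the most one-sided regions. Other list members were named after their values were seen. Motif shares planned for peak sequences were not computed; promoter windows were used in their place, a choice made after the files were seen. Alternatives covered overlap, strength thresholds, equal list lengths, assignment distance, local background and scaling.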

Additional observations from a re-analysis of the deposited data

Results flagged for a closer look

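In 2 gene lists the order of the mothers' diets was opposite in the 2 offspring diets. Endothelial identity genes had 36 regions in WDM-CDO only and 9 in CDM-CDO only, but 17 in WDM-WDO only and 27 in CDM-WDO only. Notch and angiogenesis genes had 28 and 5 with control diet offspring, and 15 in WDM-WDO only against 16 in CDM-WDO only with Western diet offspring. For all genes 43.1% of the regions of the WDO lists were in WDM-WDO only and 16.0% in CDM-WDO only. The difference between the offspring diets was not tested, since each group has 1 list, and for the Notch and angiogenesis list it rests on 1 region.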

How the results depend on the processing

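No paired analysis was possible because 1 list stands for the 2 samples of a group and its columns carry no replicate number; for the same reason no sample could be left out. Of 88 alternative values, 66 stayed close to the value reported and 22 moved. Peaks in WDM-CDO only numbered 4621 at a −log10 q of at least 5 and 5976 with lists of equal length, where those in CDM-CDO only numbered 5908; the latter numbered 1122 at a −log10 q of at least 5. The share of WDM-CDO-only peaks called in WDM-WDO was 18.9999% with a reciprocal overlap of 50%, 24.9% when peaks within 500 bp counted, 25.7% and 39.4% at a −log10 q of at least 2 and 5, and 28.7% at equal length. The share of CDM-CDO-only peaks called in CDM-WDO was 6.24% at a −log10 q of at least 5 and 8.87% at equal length. At a −log10 q of at least 5, 238 genes had a gene-end peak and 172 a start-site peak in CDM-CDO only. Of all genes' regions, 29.1% were in WDM-CDO only and 12.6% in CDM-CDO only within 10 kb, and 20.7% and 18.1% at equal length. Of the WDM-CDO-only ones, 27.5% were in WDM-WDO within 10 kb and 30.7% at equal length, where 21.6% were in CDM-WDO. Within 10 kb, 17.0% of the regions of the AP-1 list were in WDM-CDO only. By fold enrichment, 2 shared regions were at least 2-fold higher in WDM-CDO and 3 in CDM-CDO. At equal length fewer peaks of the longer list enter by construction; for the other moved values the cause was not tested. The depth of single samples is unknown, and the part of depth in weak peaks was not tested.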
